A study of Callithrix jacchus with 3 samples.

Results

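Genes that regulate or mark the naive state of pluripotency were examined in EPSC-like cells of a New World monkey, the common marmoset (Callithrix jacchus). The genes were those whose Ensembl marmoset ID pairs in the name table used here with 1 of 8 symbols, namely TFCP2L1, ESRRB, NR5A2, TBX3, ARGFX, SUSD2, FBP1 and IL6R. Rows were found for 6 of the 8, among 30811 genes in each file. The IDs that the name table gives for SUSD2, a surface marker of naive human cells, and FBP1, a gluconeogenic enzyme, had no row, so these genes were dropped and are not analysed here. The IDs of the others were ENSCJAG00000013356 (TFCP2L1), ENSCJAG00000020709 (ESRRB), ENSCJAG00000005055 (NR5A2), ENSCJAG00000009716 (TBX3), ENSCJAG00000008507 (ARGFX) and ENSCJAG00000009567 (IL6R).

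The study, by its title, tried to turn marmoset embryonic stem cells into extended pluripotent stem cells (EPSC), a state described in other species as able to form embryonic and extraembryonic tissue. It holds 1 group of 3 RNA libraries, labelled as extended pluripotent stem cells, with titles that are alike but for the replicate number. All titles carry the label No40, whose meaning is not stated, so the libraries may come from 1 cell line. No parental or control cells, genotype, treatment, medium, time or animal age is given for the group, so what can be asked is at which level each gene was read and how far the libraries differ. Whether the libraries come from separate cultures is not stated. P-values of levels then rest on the spread between these libraries, which can be technical, and p-values of a pair of libraries rest on counting error alone.

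The total counts were 40593244 to 55224475 per library. The labelled cell type was checked on core pluripotency genes fixed as markers. All 10 with a row, POU5F1, SOX2 and NANOG among them, were above 1 CPM. CPM is the count per 1000000 counts, scaled with TMM factors, which correct for composition. So were 78.3% of tested genes with a symbol and 10 of 11 mesenchyme markers. This bar alone therefore does not single out pluripotent cells. POU5F1 stood at 1044 ± 122 CPM, NANOG at 330 ± 17.2 and SOX2 at 245 ± 17.7 (SD, n = 3). By the test of library pairs described below, replicate 3 was lower in 4 of the 10 and higher in 5. Of genes of at least 1 CPM, it was lower in 36.5% and higher in 27.3%. Replicate 3 stood apart from the other libraries. Log2 ratios of 13701 genes (mean count 50 or more) had an SD of 0.16 for replicates 1 and 2 but of 0.56 in both pairs with replicate 3. The 6 genes are therefore described in each library, and their mean levels are also given without replicate 3. In bulk RNA, fewer cells of a type and less RNA per cell cannot be told apart.

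In naive pluripotency, the state of the preimplantation epiblast, a set of transcription factors keeps cells from moving on to the primed state of the later epiblast. TFCP2L1, ESRRB, NR5A2 and TBX3 belong to that network in mouse cells, where ESRRB and TFCP2L1 act downstream of LIF, Wnt and GSK3 inhibition, and NR5A2 can bind regulatory DNA of POU5F1. In human naive cells TFCP2L1 is a common marker while ESRRB is low. ARGFX is a PRD-like homeobox gene switched on around embryonic genome activation in primates, and IL6R encodes the ligand-binding chain of the interleukin 6 receptor, which signals through IL6ST (gp130) and STAT3.

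Reads of all 6 genes were found in every library. NR5A2, IL6R, TBX3 and TFCP2L1 were above 1 CPM, ARGFX was below it, and ESRRB was not distinguished from it (edgeR quasi-likelihood, Benjamini-Hochberg adjusted over 23432 genes with at least 1 count). Of all genes tested, 56% were above 1 CPM and 37.8% below it. Of the 12174 tested genes with a symbol, 78.3% were above and 16.1% below, so the share of 4 in 6 is near the background. The same shares are the background for the levels of every gene list given below. Their mean levels were 16.5 ± 3.70 CPM for NR5A2, 6.46 ± 2.21 for IL6R, 5.06 ± 3.14 for TBX3, 2.73 ± 0.62 for TFCP2L1, 0.81 ± 0.13 for ESRRB and 0.20 ± 0.12 for ARGFX (SD, n = 3). In the plot of CPM by library, the ranges of IL6R and TBX3 overlapped, as did those of TBX3 and TFCP2L1. The other neighbours in that order did not overlap. This is an order of read shares: gene lengths of the counted annotation were not at hand, so no order of transcript number follows from it. Without replicate 3 the means were 14.4, 7.73, 6.86, 3.08, 0.886 and 0.262 CPM in the same order, and all 6 calls were as with 3 libraries.

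**Figure D1:**
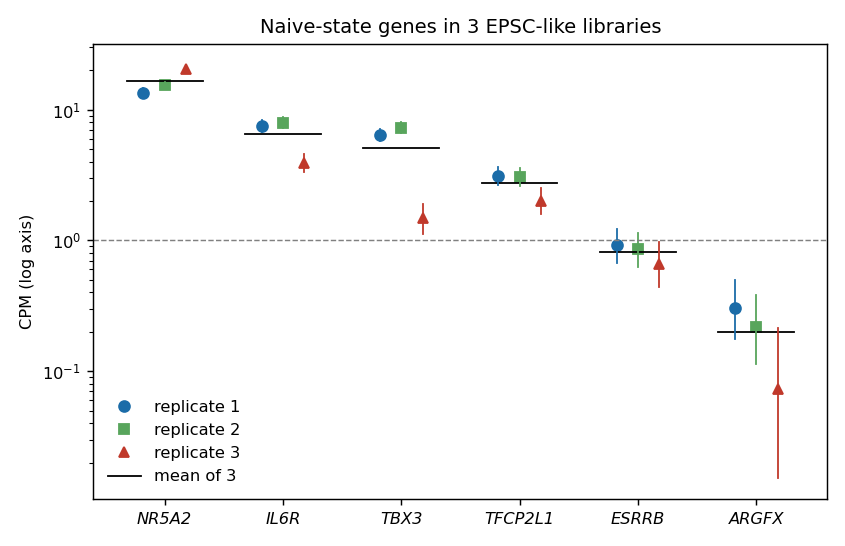
CPM (log axis) of the 6 genes in each library, with 95% Poisson intervals of the counts as vertical lines, the mean of 3 libraries as a black bar and 1 CPM as a dashed line. Replicate 3 is the lowest library for every gene shown except NR5A2, where it is the highest at 20.6 CPM.

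Across the 6 genes, replicate 3 was lower than both other libraries in TFCP2L1, TBX3 and IL6R and higher than both in NR5A2, by the exact conditional binomial test on the counts of each pair, which compares libraries and not conditions. Of all genes tested, 22.4% were lower in replicate 3 than in both others and 18% higher, and of genes of 1 CPM or more 36.5% and 27.3%. With at least 1.5-fold required, 1964 of 23432 genes were lower and 1037 higher. No 1.5-fold share was computed over genes of 1 CPM or more. These shares are also the background for the gene lists given below. Between replicates 1 and 2, 0 of the 6 differed after adjustment and 1, NR5A2, did at an unadjusted p under 0.05 (exact conditional binomial test). In that pair 7.14% of all genes tested differed. Between replicates 1 and 3, 5 of the 6 differed, with 46.7% of all genes, and between replicates 2 and 3, 4 of the 6, with 47.3% of all genes. The 4 genes whose mean was 1 CPM or more all differed in both pairs, 3 of them downward. ESRRB differed in neither pair, and ARGFX in 1 of them. As differences between libraries were this common among all genes, these counts of calls show nothing particular to the 6 as a set. The size of the difference is given below for each gene, and it was largest in TBX3.

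**Figure D2:**
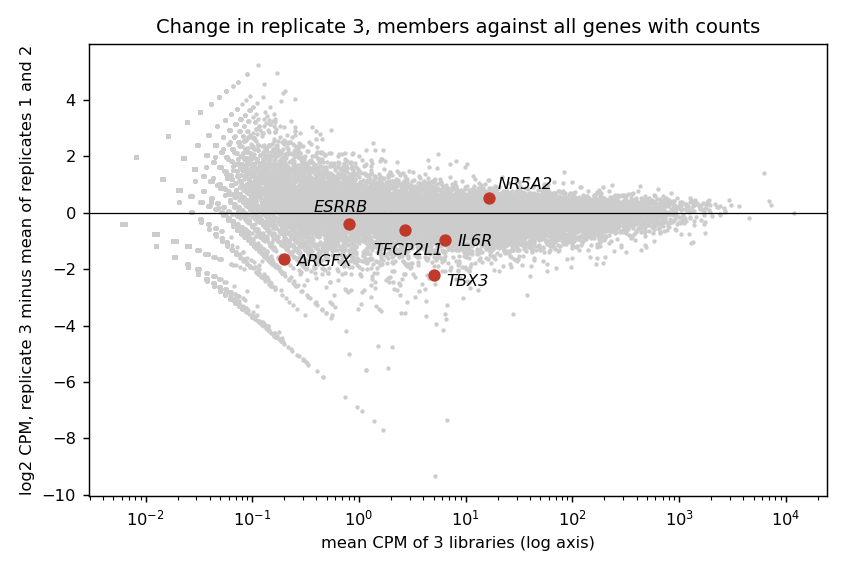
Log2 CPM of replicate 3 minus the mean of replicates 1 and 2 (prior count 0.5) against the mean CPM (log axis), for all 23432 genes with counts in grey and the 6 members in red. TBX3 lies at −2.21 near the lower edge of genes at its level, IL6R at −0.97, TFCP2L1 at −0.61, and NR5A2 at 0.52 above the line.

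TFCP2L1, a Grainyhead-like transcription factor gene, had 162, 169 and 82 counts in replicates 1, 2 and 3. These were 3.10, 3.07 and 2.01 CPM. The first pair was nearly equal and replicate 3 was lower. The level lay 1.45 above 1 CPM on the log2 scale (adjusted p = 9.84e-05, edgeR quasi-likelihood). The first pair together was 1.53-fold higher than replicate 3, with a 95% interval of 1.20 to 1.98 that covers counting error only. The difference passed against each of them (adjusted p = 0.00333 and 0.00366, exact conditional binomial test). It was lost against both when counts were halved to allow for double counting of read pairs (adjusted p = 0.0708 and 0.0734, exact conditional binomial test).

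All 6 genes of the TFCP2 and Grainyhead family were above 1 CPM. UBP1 and TFCP2, the closest relatives of TFCP2L1 and broadly expressed in tissues, stood at 205 ± 3.65 and 90.9 ± 5.77 CPM (SD, n = 3). The epithelial regulator GRHL2 stood at 48.7 ± 9.01 CPM, GRHL1 at 10.7 ± 2.55 and GRHL3 at 7.28 ± 1.43. Replicate 3 was lower than both others in TFCP2L1 and the 3 GRHL genes, and in 36.5% of genes of at least 1 CPM. With at least 1.5-fold required, 1 of the 6, TFCP2L1, was lower and 0 were higher. With counts halved, 3 were lower. Without a fold minimum, TFCP2 was the 1 gene of the family that was higher in replicate 3, at 97.5 CPM against 86.9 and 88.3. UBP1 was within 201 to 208 CPM in all libraries.

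ESRRB, which encodes an orphan nuclear receptor, had 48, 47 and 27 counts, or 0.918, 0.855 and 0.662 CPM. All 3 libraries lay just under 1 CPM. The log2 level was −0.30 (adjusted p = 0.235, edgeR quasi-likelihood). Measured against 0.5 CPM it was above the level and against 2 CPM below it, so these libraries place it between those marks. In CPM over the pooled counts, replicates 1 and 2 stood at 1.34 times replicate 3, with a counting interval of 0.864 to 2.13, and no pair of libraries differed. The SD over libraries was 16.4% of the mean, against a median of 27.5% in 1125 genes within 0.5 log2 units of its level.

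NR5A2, also called LRH-1, had 706, 842 and 841 counts, or 13.5, 15.3 and 20.6 CPM. Replicate 3 was the highest library although its total count was the smallest. The log2 level against 1 CPM was 4.04 (adjusted p = 3.44e-09, edgeR quasi-likelihood). Replicate 3 stood at 1.43 times replicates 1 and 2 together, with a counting interval of 1.31 to 1.56. It was higher than replicate 1 (adjusted p = 6.45e-16) and replicate 2 (4.79e-09) by the exact conditional binomial test. The excess over replicate 2 was under 1.5-fold. The small difference between replicates 1 and 2 did not pass after adjustment (unadjusted p = 0.0136, adjusted p = 0.120, exact conditional binomial test).

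Among the relatives of these receptors, ESRRA and ESRRG were above 1 CPM, at 40.5 ± 3.80 and 2.03 ± 0.74 (SD, n = 3). ESRRA, a regulator of mitochondrial genes, was higher in replicate 3 like NR5A2, and ESRRG was lower in it. NR5A1, the steroidogenic relative of NR5A2, had 6, 5 and 2 counts and was below 1 CPM. NR0B1 (DAX1), a corepressor that mouse naive cells express, had 4, 14 and 0 counts and was below it as well, and NR0B2 had 2, 2 and 3. NR6A1 (GCNF), an orphan receptor that represses POU5F1 during differentiation, stood at 76.4, 75.4 and 21.3 CPM, with replicate 3 far under the others.

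Of 10 cofactor genes for such receptors with a row, 9 were above 1 CPM and PROX1 was below it. KDM1A, a histone demethylase, stood at 329 ± 28.5 CPM (SD, n = 3). NCOA3, a coactivator of ESRRB in mouse stem cells, stood at 100.5, 98.4 and 46.3 CPM. It was lower in replicate 3, as were 7 of the 10 in all and 36.5% of genes of at least 1 CPM. With at least 1.5-fold required, 4 of the 10 were lower in replicate 3, as were 1964 of 23432 genes tested. NCOR1 was higher there, a call lost with counts halved.

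**Figure D3:**
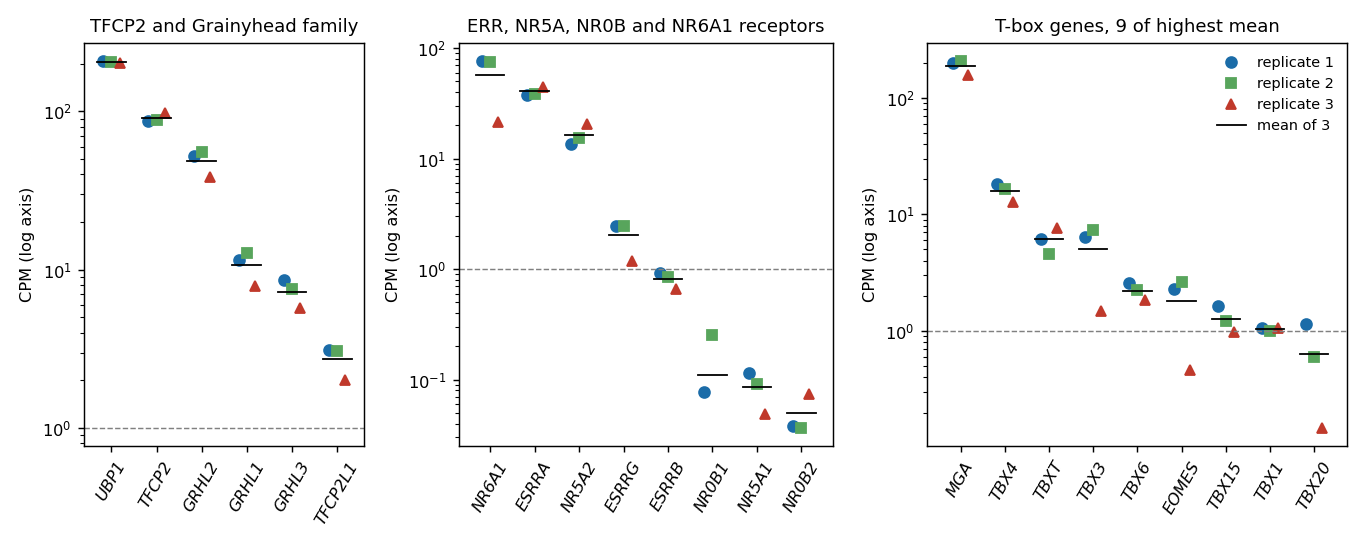
CPM (log axis) in each library for relatives of the members, with the mean of 3 libraries as a black bar and 1 CPM as a dashed line. Replicate 3 is high for NR5A2, ESRRA and TFCP2 and low for TFCP2L1, NR6A1, TBX3 and EOMES. NR0B1 had no counts in replicate 3, so that point is not drawn.

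TBX3, a T-box repressor that also acts in limb, heart and extraembryonic endoderm development, had 337, 400 and 60 counts. Its levels were 6.44, 7.27 and 1.47 CPM. Replicate 3 lay far under the others. The 95% counting intervals were 5.77 to 7.17, 6.58 to 8.02 and 1.12 to 1.89 CPM, and the last did not overlap the first pair. TBX3 was above 1 CPM with 3 libraries, at 2.35 on the log2 scale (adjusted p = 0.000229, edgeR quasi-likelihood). Replicates 1 and 2 together were 4.67-fold higher than replicate 3 (counting interval 3.58 to 6.18). The exact conditional binomial test gave adjusted p = 2.69e-33 for replicates 1 and 3 and 7.70e-42 for replicates 2 and 3. Among the 13719 genes whose mean was 1 CPM or more, 0.459% had a lower log2 difference of replicate 3 from the other libraries than its −2.21. The SD of TBX3 over libraries was 62.0% of its mean, against a median of 16.5% in 1354 genes within 0.5 log2 units of its level.

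Of 14 T-box genes with a row, TBX3 included, 5 were above 1 CPM, 4 below it and 5 not distinguished. MGA, which pairs with MAX in a repressor complex, stood at 188 ± 26.3 CPM and TBX4, a limb and allantois gene, at 15.8 ± 2.75 (SD, n = 3). TBXT (brachyury), the primitive streak regulator, stood at 6.19, 4.60 and 7.68 CPM and was higher in replicate 3. EOMES, which acts in streak, endoderm and trophoblast, stood at 2.29, 2.66 and 0.466 CPM and was lower in it. TBX5, which neighbours TBX3 in the RefSeq annotation of the assembly calJac240_pri, had 20, 18 and 37 counts and was higher in replicate 3. Of the 14, 5 were lower in replicate 3 and 2 higher. The shares were 22.4% and 18% of all genes tested, and 36.5% and 27.3% of genes of at least 1 CPM. With counts halved 4 of the 14 were lower and 0 higher (exact conditional binomial test), so the calls for TBXT and TBX5 were lost.

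ARGFX had 16, 12 and 3 counts, or 0.306, 0.218 and 0.0736 CPM. The counts in replicate 3 are at the limit that 0 counts would allow, which is taken as 3 counts. The log2 level was −2.30 (adjusted p = 0.0048, edgeR quasi-likelihood). Replicates 1 and 2 together stood at 3.55 times replicate 3, with a wide counting interval of 1.10 to 18.2. Replicate 3 was lower than replicate 1 (adjusted p = 0.0402) but did not pass against replicate 2 (adjusted p = 0.1996, exact conditional binomial test). With counts halved the first of these was lost too (adjusted p = 0.361, exact conditional binomial test).

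Other PRD-like genes of the early embryo were hardly read. LEUTX had 3, 1 and 1 counts and was below 1 CPM, and DPRX had no counts in any library. OTX2, a PRD-class gene of the primed epiblast and forebrain, stood at 21.0 ± 2.02 CPM (SD, n = 3). The other 7 genes listed with them were not matched and are not analysed here.

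IL6R had 393, 437 and 160 counts, or 7.51, 7.95 and 3.92 CPM. The first 2 libraries were close and replicate 3 was lower than both. The log2 level was 2.69 (adjusted p = 1.80e-06, edgeR quasi-likelihood). Replicates 1 and 2 together were 1.97-fold higher than replicate 3 (counting interval 1.66 to 2.35). The differences passed the exact conditional binomial test (adjusted p = 4.17e-12 and 9.14e-15). Of the genes whose mean was 1 CPM or more, 5.21% had a lower log2 difference of replicate 3 from the other libraries.

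Most listed genes of the IL6 receptor family and its pathway were above 1 CPM, as were 78.3% of tested genes with a symbol. The ligand of IL6R was below 1 CPM. IL6 itself had 3, 1 and 0 counts. Of 17 genes of the receptor family and its pathway with a row, IL6R included, 13 were above 1 CPM, 3 (LIF, IL11 and IL6) below it, and CNTFR not distinguished. The shared signalling chain IL6ST stood at 62.8, 60.7 and 35.5 CPM. STAT3, the transcription factor downstream, stood at 94.7, 98.5 and 52.1 CPM. ADAM10 and ADAM17, proteases that shed IL6R from the cell surface, were lower in replicate 3 as well, ADAM10 at 264, 269 and 170 CPM and ADAM17 at 240, 246 and 180.

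The pathway was lower in replicate 3 in most of its genes. Of the 17, 12 were lower in replicate 3 than in both other libraries and 1, the kinase gene TYK2, was higher, a call lost with counts halved. The shares among genes of at least 1 CPM, 36.5% and 27.3%, are the closer comparison for a list that is mostly above that level. The median log2 difference of replicate 3 from the others was −0.49 over the 17, −0.05 over genes of at least 1 CPM and 0.005 over all genes tested. With at least 1.5-fold required, 7 of the 17 were lower and 0 higher, against 1964 and 1037 of 23432 genes tested. LIFR, the receptor of leukemia inhibitory factor, differed most, at 4.64, 6.13 and 0.907 CPM. OSMR, the oncostatin M receptor gene, lay within 2.89 to 3.10 CPM in all libraries.

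**Figure D4:**
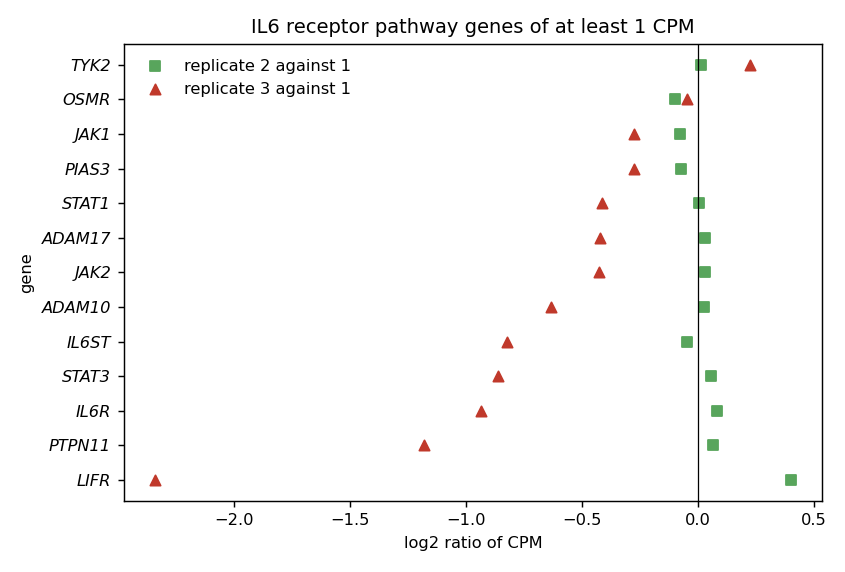
Log2 ratio of CPM to replicate 1 for the 13 genes of the interleukin 6 receptor pathway whose mean was 1 CPM or more. Squares are replicate 2 and triangles replicate 3. Squares lie near 0, with LIFR farthest, and triangles lie below 0 for every gene shown except TYK2.

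Relatives of the dropped genes give some context on their families. Of the gluconeogenesis and fructose phosphate list around FBP1, 11 of 14 genes with a row were above 1 CPM. This is near the 78.3% of tested genes with a symbol. PCK1, G6PC3, PFKM and TIGAR were not matched and are not analysed here. FBP2, the muscle form of fructose bisphosphatase, was below 1 CPM at 0.55 ± 0.20 (SD, n = 3). The liver gene G6PC1 was below it as well, at 0.064 ± 0.036 CPM. The glycolytic enzyme ALDOA stood at 728 ± 127 CPM, and PCK2, the mitochondrial form of the gluconeogenic carboxykinase, at 11.1 ± 0.95. Of the sushi domain genes, SUSD6 and SUSD4 were above 1 CPM at 1.64 ± 0.69 and 1.44 ± 0.34, and SUSD1 was below it. Neither call of the first pair held without replicate 2, and 1 of them held without replicate 1.

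Markers of other cell types that express some of these genes also differed in replicate 3. TBX3 and NR5A2 are known from endoderm, amnion and trophoblast as well. The endoderm list summed to 587, 578 and 377 CPM, with 7 of 10 genes with counts lower in replicate 3, 0 higher and AFP at 0. Most of that sum was the basement membrane gene COL4A1, at 544, 536 and 354 CPM. The primitive endoderm regulator GATA6 stood at 7.32, 8.06 and 0.490 CPM, while GATA4, its relative, stood at 4.13, 4.62 and 3.87 CPM and was not called lower. The trophectoderm list summed to 102, 105 and 78.3 CPM, with 6 of 9 lower, 1 higher and CYP19A1 at 0. Most of that sum was TEAD4, at 41.8, 43.0 and 38.3 CPM, and TEAD3, at 27.7, 28.4 and 23.9. TFAP2A stood at 12.3, 12.1 and 2.45 CPM. CDX2 had 25, 29 and 0 counts, and the gene that was higher, the keratin gene KRT7, stood at 7.80, 8.24 and 9.86 CPM, a call lost with counts halved. The amnion list summed to 20.0, 18.9 and 9.0 CPM, with 4 of 6 lower. The mesenchyme list summed to 882, 825 and 607 CPM, mostly from COL1A1 at 546, 516 and 404, with 10 of 11 lower. Of all genes tested 22.4% were lower in replicate 3 than in both others, and of genes of at least 1 CPM 36.5%. With at least 1.5-fold required, 6 endoderm, 4 trophectoderm, 4 amnion and 5 mesenchyme genes were lower. At that setting 1964 of 23432 genes tested were lower, and no share over genes of at least 1 CPM was computed. The part of these cell types in the TBX3, TFCP2L1 and IL6R levels was not tested.

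The sums of the blood and liver markers, which rest on few genes, were not lower in replicate 3 than in both other libraries. IL6R is well known in leukocytes and hepatocytes, and NR5A2 in liver and pancreas. The blood list summed to 4.49, 4.36 and 6.25 CPM, mostly from SPI1 at 4.22 ± 0.91, with the leukocyte gene PTPRC at 2, 4 and 0 counts and the macrophage gene CD163 at 0. Of 4 blood genes with counts, 0 were lower in replicate 3 than in both others and 1 was higher. The hepatocyte list summed to 9.65, 7.38 and 8.41 CPM, mostly from APOA1 and TAT, with ALB at 0. Of its 6 genes with counts, 1 was lower in replicate 3, SERPINA1 at 18, 20 and 0 counts, and 0 were higher. The part of such cells in the IL6R and NR5A2 levels was not tested.

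Of 29 other naive-state or early-embryo genes fixed as a list, 14 had a row. DPPA3, DPPA4, DNMT3L, KHDC1L, ZFP42 and FGF4 were among those not matched and are not analysed here. Of the 14, 10 were above 1 CPM, as were 78.3% of tested genes with a symbol. UTF1, PRDM14, SALL4 and DPPA2 of these 10 are counted among the core pluripotency genes as well. CPT1A, ALPP, HORMAD1 and OLAH were below 1 CPM. Replicate 3 was lower in 3 of the 14 and higher in 6. KHDC3L, an oocyte and early embryo gene, stood at 183, 185 and 251 CPM, DPPA5 at 112, 113 and 161 and GDF3, a TGF-beta ligand gene, at 148, 153 and 281, all higher in replicate 3 as NR5A2 was. SALL4, a zinc finger regulator of pluripotency, stood at 135, 134 and 58.5 CPM and was lower, as TFCP2L1 was. All 5 matched genes of the list of surface markers and adhesion or transport genes linked to the naive state (CDH1, SLC2A3, F11R, IL6ST and KIT) were above 1 CPM and, like IL6R, lower in replicate 3. Of 7 matched surface markers linked to the primed state, all were above 1 CPM, 5 were lower in replicate 3 and BST2 was higher. Of 11 matched primed regulators, 10 were above 1 CPM, 6 were lower in replicate 3 and 2 higher. With at least 1.5-fold required, replicate 3 was lower in 1 and higher in 2 of the 14 naive-state genes, and lower in 4 of the 5 surface and transport genes. It was then lower in 5 of the 7 primed surface markers and 4 of the 11 primed regulators, and higher in 0 of either list. With that requirement, 1964 of 23432 genes tested were lower in replicate 3 and 1037 higher. Without it, 36.5% of genes of at least 1 CPM were lower in replicate 3 and 27.3% higher.

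The Wnt and GSK3 axis, which controls ESRRB and TFCP2L1 in mouse cells, was represented by 10 of the 12 genes listed. TCF7L1, the repressor of the axis, and AXIN2 were not matched and are not analysed here. All 10 were above 1 CPM, as were 78.3% of tested genes with a symbol. CTNNB1 (beta-catenin) stood at 309 ± 58.3 CPM and GSK3B at 140 ± 21.5 (SD, n = 3). Replicate 3 was lower in 8 of the 10, and in 36.5% of genes of at least 1 CPM. With at least 1.5-fold required it was lower in 2 of the 10, and in 1964 of 23432 genes tested.

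For each member, the gene with a symbol whose log2 CPM over the 3 libraries lay nearest was found among 12173 genes. It was MMP16 for TFCP2L1, with 160, 170 and 79 counts, TTC22 for ESRRB, CDC42EP5 for NR5A2, DLC1 for TBX3, with 360, 398 and 50 counts, SYNE3 for ARGFX and PLBD1 for IL6R. The Euclidean distances were 0.057, 0.15, 0.079, 0.28, 0.21 and 0.092 log2 units. Within a distance of 0.2, TFCP2L1 had 27 genes, NR5A2 and IL6R 16 each, ESRRB 1, and TBX3 and ARGFX none. With 3 libraries such likeness is a description of level and of replicate 3, and carries no p.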

How the data were processed

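RNA was sequenced from 3 libraries. The submitters' processing notes name Trim Galore 0.4.0, STAR 2.5.3a and, for counting, featureCounts 1.5.2. Build, annotation, strand setting and handling of multi-mapping reads: not given in the sources used here. Reads from overlapping or antisense genes therefore cannot be told apart. The deposited values are raw counts per Ensembl gene ID. No row lacked a gene ID. The name table paired 12660 IDs in the files with symbols. RefSeq (calJac240_pri) was used for neighbours' names only. In it TFCP2L1 and IL6R overlap pseudogenes, and NR5A2 overlaps a pseudogene and an snRNA gene. None of these matched a row by symbol, so whether they were counted is not known.

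Replicates 1, 2 and 3 held 52327369, 55224475 and 40593244 counts. The limit of 3 counts was 0.0573, 0.0546 and 0.0736 CPM. Limits and 95% intervals cover counting error only, since no molecular identifiers were used. CPM was computed with TMM factors (edgeR 4.0.16, R 4.3.3). Levels were tested against 1 CPM with edgeR's quasi-likelihood F in a model with an intercept alone, computed from the deviances of glmQLFit, as glmQLFTest takes no such model. Fits on 2 libraries had infinite prior degrees of freedom and ignore a gene's own spread. Pairs of libraries were compared by an exact conditional binomial test given TMM-scaled totals. Both tests were two-sided, Benjamini-Hochberg adjusted over 23432 genes, called under 0.05, and tested on simulated data. Alternatives included DESeq2 1.42.0. Figures were drawn with matplotlib 3.10.9. The members and lists were chosen with earlier results of these data known. Named were all members, their relatives and signalling partners, up to 4 genes of highest mean CPM, the lowest 2 called below 1 CPM and the undetected genes of each other list, the core pluripotency markers and the gene of nearest profile. CDX2, GATA4, CPT1A, ALPP and KIT were named beyond that rule, after their values were seen. Some list genes are counted in their lists but not reported here by name.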

Additional observations from a re-analysis of the deposited data

How the results depend on the processing

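No paired analysis was possible because all libraries belong to 1 group. CPM per kilobase was not run, as the reference gives gene spans and no transcript lengths. The 6 members' calls against 1 CPM were the same with DESeq2 size factors, library totals, the DESeq2 test, halved counts, replicates 1 and 2 summed, and without each replicate, where 4 were above and 1 below in each fit. The low-count filter kept 15716 genes and 5 members and left out ARGFX, so members below numbered 0 and genes below 1242. Against 0.5 CPM the log2 level of ESRRB was 0.70 (adjusted p = 0.0155, edgeR quasi-likelihood), and against 2 CPM it was −1.30 and 2 members were below. With counts halved, genes that differ between replicates 1 and 2 numbered 242 rather than 1674, and 3 members differed between replicates 1 and 3. With at least 1.5-fold required, genes that differ numbered 291, 3950 and 4110 for replicates 1 and 2, 1 and 3, and 2 and 3, against 1674, 10942 and 11091. Genes lower in replicate 3 than in both others then numbered 1964 rather than 5241, genes higher 1037 rather than 4226, and members higher 0 rather than 1. With 3 to 16 counts per library, ARGFX gives wide intervals.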
